A study of Mus musculus with 6 samples.

Results

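The acid-base genes of the kidney's intercalated cells were examined in the mRNA counts of mice given adenine and potassium oxonate, and 10 genes were chosen by symbol: Slc4a1, Slc26a4, Slc4a9, Rhcg, Foxi1, Hmx2, Atp6v1b1, Atp6v1g3, Atp6v0a4 and Atp6v0d2. All 10 were found among the 55450 genes of the count table, and all 10 had enough counts to be among the 16592 genes tested. The animals were male wild type C57BL/6J mice bought at 7 weeks of age and kept for 1 week before the experiment. The day-21 group (n = 3 mice) had received adenine (0.16 g/kg) with potassium oxonate (2.4 g/kg) by gavage once daily, and the day-0 group (n = 3), which is the control, is labelled with 20% PEG as its treatment. The groups are different mice, and by the paper each was killed on its own day. Age and time in the experiment therefore cannot be told apart from treatment. Adenine and oxonate together raise uric acid and injure tubules throughout the kidney, so the model does not act on intercalated cells alone. Whole kidney tissue was sequenced and counts are relative to each library. Fewer intercalated cells, less RNA per intercalated cell and a changed share of RNA from other cells therefore cannot be told apart.

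Intercalated cells sit among the principal cells of the connecting tubule and collecting duct and set the final acid and base content of urine. The type A cell secretes protons into urine through a vacuolar proton pump and returns bicarbonate to blood through the chloride-bicarbonate exchanger AE1, encoded by Slc4a1. The type B cell works in the opposite direction, with the exchanger pendrin, encoded by Slc26a4, on the urine side. The proton pump has a cytosolic sector, V1, which splits ATP, and a membrane sector, V0, which conducts protons, and several of its subunits exist as one isoform found in nearly all cells and another concentrated in intercalated cells. Foxi1, a forkhead transcription factor, is required for the formation of intercalated cells. Inherited loss of Slc4a1, Atp6v1b1 or Atp6v0a4 in people causes distal renal tubular acidosis, and loss of Slc26a4 causes Pendred syndrome.

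Between day 0 and day 21, 7 of the 10 genes fell and none rose. Here a gene is called when its adjusted p is under 0.05 and its fold change over 1.5 by edgeR's quasi-likelihood test over all genes, the limits the study used for differentially expressed genes (DEGs). Over all 16592 genes tested, 35.1% were called, 15.5% lower and 19.6% higher. The median log2 fold change of the 10 genes was -0.78, against 0.03 over all genes tested. The type A exchanger Slc4a1 and the type B exchanger Slc26a4 fell furthest, Slc4a9, Rhcg, Hmx2, Atp6v1g3 and Atp6v0a4 fell to a lesser degree, and Foxi1, Atp6v1b1 and Atp6v0d2 did not pass the test. In each of the 7 called genes every day-21 mouse lay below every day-0 mouse in normalized counts, and for the other 3 the groups overlapped. Among all genes tested the groups were parted in 57.1%, with day 21 lower in 26.4% and higher in 30.7%. Each of the 7 genes reached p = 0.1 in an exact permutation test (two-sided), the smallest value possible with 3 mice on each day.

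**Figure D1:**
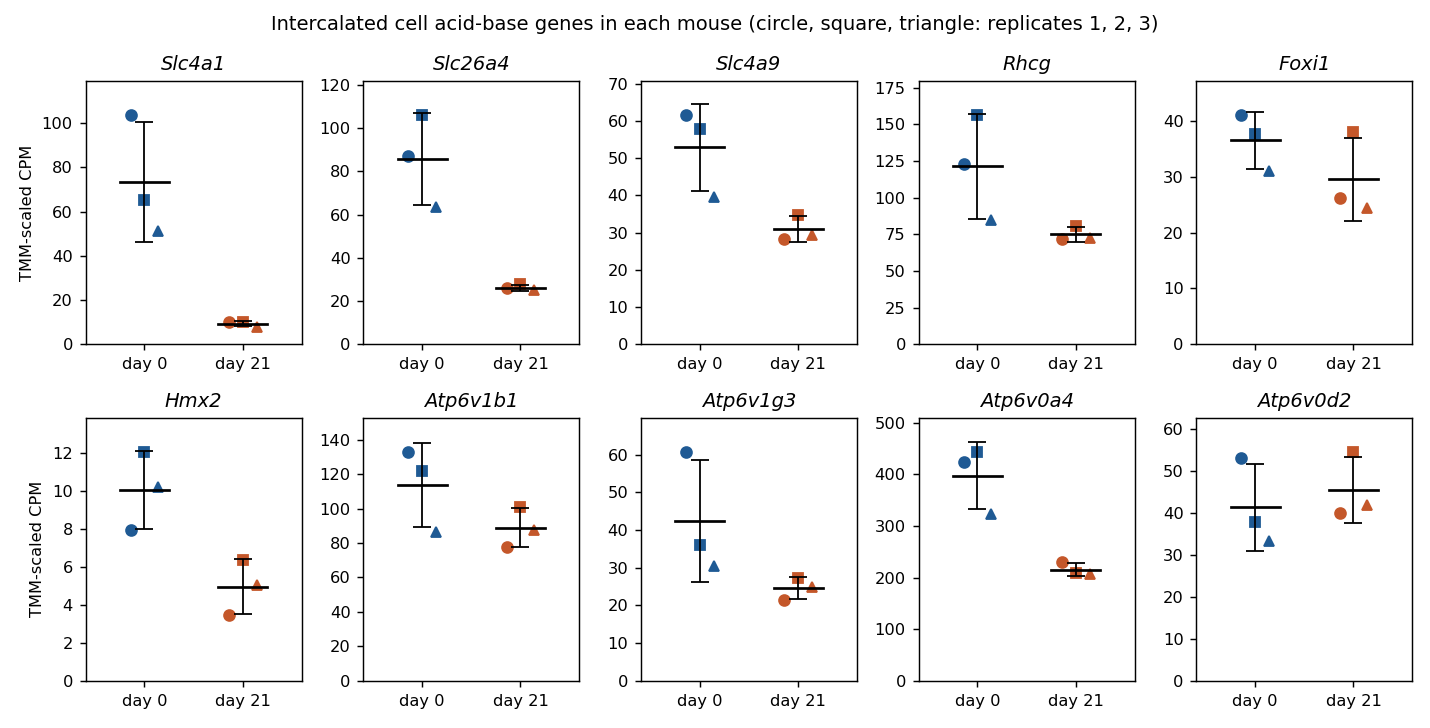
Level of each of the 10 genes in each mouse, in TMM-scaled CPM on axes that start at 0, with day 0 in blue and day 21 in orange. Symbols are mice, lines are means and bars are SD (n = 3). The day-21 mice lie below all day-0 mice for Slc4a1, Slc26a4, Slc4a9, Rhcg, Hmx2, Atp6v1g3 and Atp6v0a4, and the groups overlap for Foxi1, Atp6v1b1 and Atp6v0d2.

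Total counts per library lay between 10963849 and 14333311. Mitochondrially encoded genes took 9.39% to 9.86% of counts in the day-0 libraries and 3.82% to 4.42% in the day-21 libraries, and without them 7 of the 10 genes were again called lower. Libraries were scaled by the TMM method, whose factors ran from 0.852 to 0.886 on day 0 and from 1.12 to 1.17 on day 21, and levels are given as CPM, counts relative to the scaled library total. The detection floor was set at 3 counts, equal to 0.179 to 0.309 CPM across the libraries, and the 10 genes lay above it in every mouse. The scaling shifts all genes alike, and with library size alone the median gene had a log2 fold change of 0.42 in place of 0.03. On that scale 2 of the 10 genes, Slc4a1 and Slc26a4, were called lower. Measured from the median of all genes, the median of the 10 was -0.81 with TMM and -0.81 with library size alone. These values are alike by construction, because the scaling shifts all genes alike, and they cannot decide between the scales.

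The bicarbonate exchangers come first. Slc4a1 (ENSMUSG00000006574.15) lies on the reverse strand of chromosome 11 of GRCm38 from 102348824 to 102366203, and its longest annotated transcript has 20 exons. Counts were 1032, 789 and 497 on day 0 and 142, 168 and 129 on day 21. Normalized, these were 103, 65.0 and 51.2 CPM on day 0 and 10.04, 10.02 and 7.90 CPM on day 21. All day-21 mice were thus far below the lowest day-0 mouse, and the day-0 mice differed among themselves by 2.02-fold. The mean fell from 73.2 ± 27.1 CPM (SD, n = 3) to 9.32 ± 1.23 (SD, n = 3), a log2 fold change of -2.97 (standard error 0.25, 95% confidence interval from -3.53 to -2.42, adjusted p = 1.0e-05 by edgeR). Its level on day 21 was 0.127 times that on day 0, which places it 92nd among the 2572 genes called lower.

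Red blood cells also carry AE1, in a longer form made from the same gene, and counts per gene do not separate the forms. Of the 10 erythroid markers, 9 were found and 6 had enough counts to be tested, with 5 called lower and 1, Epb42, called higher. Their summed level lay between 229 and 526 CPM on day 0 and between 36.3 and 84.7 CPM on day 21. Hbb-bs, a beta globin, stood at 131, 281 and 138 CPM on day 0 and at 46.7, 18.3 and 44.5 CPM on day 21. Alas2, the first enzyme of heme synthesis in red cells, stood at 9.43, 23.7 and 5.98 CPM on day 0 and at 2.90, 1.73 and 3.12 CPM on day 21. Thus 5 erythroid genes fell along with Slc4a1, while Epb42 rose (log2 fold change 1.72). On day 0 the globin was highest in replicate 2 and Slc4a1 in replicate 1. Rhag, a membrane protein gene of red cells, held at most 1 count in any mouse. Without day-0 replicate 2, the log2 fold change of Slc4a1 was -3.05. The part of red cells in the fall of Slc4a1 was not tested.

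Slc26a4 (ENSMUSG00000020651.8), on the reverse strand of chromosome 12 from 31519827 to 31559969, stood at 87.2, 106 and 63.6 CPM on day 0 and at 25.8, 27.7 and 25.1 CPM on day 21. The day-21 mice agreed within a coefficient of variation of 5.19%, the smallest of the 10 genes, and all lay below the day-0 mice. The mean fell from 85.6 ± 21.2 CPM (SD, n = 3) to 26.2 ± 1.36 (SD, n = 3), a log2 fold change of -1.71 (standard error 0.17, 95% confidence interval from -2.09 to -1.32, adjusted p = 3.0e-05 by edgeR). Its level fell by 69.4%. Slc4a1 and Slc26a4 were called lower under all 17 alternatives tried.

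Slc4a9 (ENSMUSG00000024485.16), on chromosome 18, encodes the exchanger AE4 of the blood side of the type B cell. It stood at 61.5, 57.7 and 39.5 CPM on day 0 and at 28.3, 34.8 and 29.4 CPM on day 21. The groups did not overlap, and the gap between them was narrow beside that of Slc26a4. The log2 fold change was -0.78 (standard error 0.17, 95% confidence interval from -1.16 to -0.40, adjusted p = 0.0039 by edgeR). The interval of Slc4a9 does not meet that of Slc26a4, although both exchangers belong to the type B cell, and the difference between these genes was not itself tested. With library size alone Slc4a9 was not called (log2 fold change -0.38, adjusted p = 0.080 by edgeR).

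Whether the exchangers of the A and B types moved unequally was asked within each mouse, where the scaling of the library drops out of a ratio of genes. The log2 ratio of Slc26a4 to Slc4a1 counts was -0.25, 0.70 and 0.31 on day 0, against 1.36, 1.47 and 1.66 on day 21. The log2 ratio of Slc4a9 to Slc4a1 was -0.75, -0.17 and -0.38 on day 0 and 1.49, 1.79 and 1.89 on day 21. For both ratios every day-21 mouse lay above every day-0 mouse. The ratios share Slc4a1 as denominator, so they are not independent of each other. Counts of Slc4a1 also do not separate the form of type A cells from that of red cells. The ratio to Slc4a1 was 2.36-fold higher on day 21 for Slc26a4 and 4.46-fold higher for Slc4a9 (p = 0.1 by exact permutation, two-sided, which is the lowest this design can give, and 0.15 after Benjamini-Hochberg adjustment over the 6 ratios tested). The threshold of 0.05 cannot be reached with these numbers of mice.

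**Figure D2:**
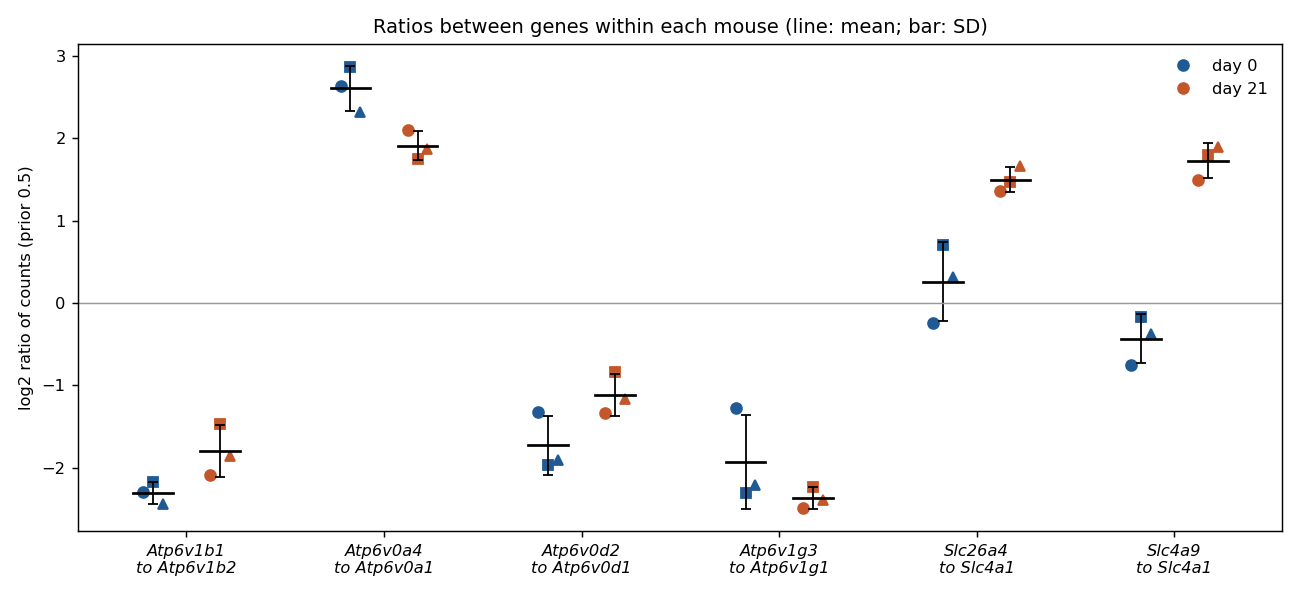
Log2 ratio of the counts of paired genes within each mouse, with day 0 in blue and day 21 in orange, means as lines and SD as bars (n = 3). The groups do not overlap for Atp6v1b1 to Atp6v1b2, Atp6v0a4 to Atp6v0a1 and both exchanger ratios, which are higher on day 21 by 1.24 and 2.16 on the log2 scale, and they overlap for Atp6v0d2 to Atp6v0d1 and Atp6v1g3 to Atp6v1g1.

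Rhcg (ENSMUSG00000030549.6, chromosome 7 from 79593363 to 79617657) encodes the ammonia channel through which the collecting duct moves ammonia, the main carrier of excreted acid, into urine. It stood at 123, 156 and 85.0 CPM on day 0 and at 71.9, 80.8 and 72.2 CPM on day 21, with the highest day-21 mouse just under the lowest day-0 mouse. The log2 fold change was -0.70 (standard error 0.19, 95% confidence interval from -1.12 to -0.28, adjusted p = 0.012 by edgeR). This call rested on day-0 replicate 2, which had the highest level: without it the log2 fold change was -0.47 (adjusted p = 0.043 by edgeR), which is under the 1.5-fold limit. Rhcg was also not called with library size alone (-0.30). Urothelium carries Rhcg too, and the summed level of 6 urothelial markers lay between 13.8 and 21.5 CPM on day 0 and between 58.7 and 73.6 CPM on day 21. Krt20 made up most of the day-21 sum, at 16.0, 0.247 and 0.515 CPM on day 0 and 57.5, 53.2 and 62.5 CPM on day 21. The other 5 markers together lay between 4.21 and 21.0 CPM on day 0 and between 5.49 and 11.2 CPM on day 21. Krt20 was called higher (log2 fold change 3.40), Upk1a lower (-1.51) and the other 4 were not called, with a median of -0.29 over the 6. The part of urothelium in the level of Rhcg was not tested.

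Among the transcription factors, Foxi1 (ENSMUSG00000047861.2, chromosome 11 from 34204338 to 34208089) did not pass the test. It stood at 41.0, 37.6 and 31.0 CPM on day 0 and at 26.2, 38.0 and 24.4 CPM on day 21, and the groups overlapped through the second day-21 mouse. The log2 fold change was -0.31 (standard error 0.18, 95% confidence interval from -0.71 to 0.10, adjusted p = 0.196 by edgeR), so that a fall to 0.611 times the day-0 level lies within the interval, as does a small rise. The value turned to 0.09 with library size alone, and without day-21 replicate 2 it was -0.53 (adjusted p = 0.028 by edgeR), still under the 1.5-fold limit. Hmx2 (ENSMUSG00000050100.14, chromosome 7 from 131548773 to 131558014) is a homeobox factor and was the least abundant of the 10 genes on day 0. It had counts of 79, 146 and 99 on day 0 against 49, 107 and 82 on day 21. Normalized, it stood at 7.92, 12.0 and 10.2 CPM against 3.46, 6.38 and 5.02 CPM, without overlap. Hmx2 fell by 50.6% (log2 fold change -1.02, adjusted p = 0.00995 by edgeR, standard error 0.26), and it was not called with library size alone (-0.62, adjusted p = 0.073 by edgeR).

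Because Foxi1 is known to activate the promoters of several of these genes, the promoters were searched for the forkhead word GTAAACA or ATAAACA on both strands. RefSeq promoters on GRCm38.p6 (250 bases before to 50 after each start) were matched for 7 of the 10 genes, and none was matched for Slc4a1, Slc4a9 and Atp6v0d2. Only that of Atp6v1b1 held a word, GTAAACA on the opposite strand with its first base 98 bases before the start. Among all 32851 promoters, 3.65% held GTAAACA and 4.6% held ATAAACA. The bases before the start are shown for Atp6v1b1, which holds the word and was not called, and for Slc26a4, which holds none and fell. They are written 5′ to 3′ along each gene, and capitals mark the word. The window of Atp6v1b1 is chr6:83742767-83743016 on the forward strand and that of Slc26a4 is chr12:31559985-31560234 on the reverse strand.
Atp6v1b1: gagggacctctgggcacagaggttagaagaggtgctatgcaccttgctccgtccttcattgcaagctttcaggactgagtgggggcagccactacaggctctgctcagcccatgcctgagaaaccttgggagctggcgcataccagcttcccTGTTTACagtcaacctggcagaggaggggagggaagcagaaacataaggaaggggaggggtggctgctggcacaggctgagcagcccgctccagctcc
Slc26a4: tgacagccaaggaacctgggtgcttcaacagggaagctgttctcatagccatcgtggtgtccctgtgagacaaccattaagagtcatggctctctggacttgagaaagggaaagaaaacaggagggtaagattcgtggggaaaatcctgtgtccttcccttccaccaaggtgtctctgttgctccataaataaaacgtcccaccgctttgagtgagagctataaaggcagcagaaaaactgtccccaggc

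The remaining 4 genes encode proton pump subunits known from intercalated cells, and 2 of them fell. Atp6v0a4 (ENSMUSG00000038600.12, chromosome 6 from 38048483 to 38124586), the a4 subunit of the membrane sector, stood at 425, 443 and 323 CPM on day 0 and at 230, 209 and 207 CPM on day 21. The 3 day-21 mice lay close together and well under the day-0 mice. The mean fell from 397 ± 64.7 CPM (SD, n = 3) to 215 ± 12.5 (SD, n = 3), a log2 fold change of -0.88 (standard error 0.14, 95% confidence interval from -1.18 to -0.58, adjusted p = 4.6e-04 by edgeR). A gene on the same strand, D630045J12Rik, shares 5.21% of the exon bases of Atp6v0a4, and Tmem213 on the other strand shares 1.25%. With library size alone the adjusted p of Atp6v0a4 was 0.0074 by edgeR, with a log2 fold change of -0.49, which is under the 1.5-fold limit. Whole kidney counts do not give the cell of origin, and the part of other tubule cells in the level of Atp6v0a4 was not tested.

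Atp6v1g3 (ENSMUSG00000026394.5, chromosome 1 from 138273738 to 138289462), the G3 subunit in the stalk of the cytosolic sector, stood at 60.7, 36.0 and 30.4 CPM on day 0 and at 21.6, 27.2 and 25.0 CPM on day 21. The groups were parted, but day-0 replicate 1 lay far above the other day-0 mice. Its log2 fold change of -0.78 (standard error 0.23, 95% confidence interval from -1.29 to -0.27) had an adjusted p of 0.018 by edgeR. Without day-0 replicate 1 the value was -0.46, under the 1.5-fold limit (adjusted p = 0.035 by edgeR). It was also not called without day-21 replicate 1 (-0.70, adjusted p = 0.065 by edgeR) or with library size alone (-0.39).

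Atp6v1b1 (ENSMUSG00000006269.7, chromosome 6 from 83742990 to 83758855), the B1 subunit that takes part in ATP splitting, stood at 133, 122 and 86.2 CPM on day 0 and at 78.0, 101 and 87.8 CPM on day 21. The lowest day-0 mouse fell among the day-21 mice. Its log2 fold change of -0.36 (standard error 0.16, 95% confidence interval from -0.72 to 0.01, adjusted p = 0.104 by edgeR) did not pass, and with library size alone it was 0.04. Without day-0 replicate 3 it was -0.54 (adjusted p = 0.0089 by edgeR), under the p limit but also under 1.5-fold. Atp6v0d2 (ENSMUSG00000028238.6, chromosome 4 from 19876841 to 19922605), the d2 subunit of the membrane sector, stood at 53.1, 37.9 and 33.3 CPM on day 0 and at 39.9, 54.6 and 42.0 CPM on day 21. Its groups overlapped, and its log2 fold change was 0.14 (standard error 0.19, 95% confidence interval from -0.28 to 0.55, adjusted p = 0.584 by edgeR). The value was between -0.02 and 0.33 when single mice were left out, and it was 0.53 with library size alone.

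Atp6v0d2 is also known from osteoclasts and macrophages, and markers of macrophages rose in these kidneys. All 8 macrophage markers were called higher, and their summed level lay between 165 and 212 CPM on day 0 and between 934 and 1257 CPM on day 21. Adgre1, the gene of the surface protein F4/80, had a log2 fold change of 2.81 and Csf1r, the receptor for macrophage colony-stimulating factor, of 0.83. Of 6 osteoclast and fused macrophage markers, 4 were tested and 2 were called higher, Gpnmb (log2 fold change 4.41) and Ctsk (2.82). Acp5 (-0.14) and Calcr (1.46, adjusted p = 0.053 by edgeR) were not called. The summed level of the 6 markers lay between 52.3 and 68.4 CPM on day 0 and between 78.8 and 88.9 CPM on day 21. Acp5 made up most of this sum, at 47.9, 63.5 and 56.2 CPM on day 0 and 51.5, 50.5 and 49.7 CPM on day 21. Dcstamp and Ocstamp, needed for cell fusion, held at most 8 counts in any mouse. The part of these cells in the level of Atp6v0d2 was not tested.

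Each of these 4 subunits has an isoform used more widely, and the pairs were compared within each mouse. For the B subunit, Atp6v1b2 was called lower (log2 fold change -0.85, adjusted p = 7.5e-04 by edgeR) while Atp6v1b1 was not called. The log2 ratio of Atp6v1b1 to Atp6v1b2 was -2.30, -2.17 and -2.44 on day 0 and -2.09, -1.46 and -1.85 on day 21, and every day-21 mouse was higher. For the a subunit the ratio moved the other way, since Atp6v0a1 was not called (-0.17) while Atp6v0a4 fell. The log2 ratio of Atp6v0a4 to Atp6v0a1 was 2.63, 2.86 and 2.32 on day 0 and 2.10, 1.75 and 1.87 on day 21, and every day-21 mouse was lower. These shifts, by 0.50 and -0.70 on the log2 scale, each had p = 0.1 (two-sided exact permutation test, adjusted 0.15). The ratios of Atp6v0d2 to Atp6v0d1 and of Atp6v1g3 to Atp6v1g1 differed by 0.62 and -0.44, with overlapping groups (p = 0.2 by the same exact permutation test, adjusted 0.2).

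To compare levels between genes, CPM were divided by the length of annotated exon, merged over all transcripts of a gene. The transcripts made in these kidneys may be shorter, so shares and orders on this scale are approximate. Atp6v1b1 made up 19.7 ± 1.43% (SD, n = 3) of B subunit mRNA on day 0 and 26.0 ± 4.23% (SD, n = 3) on day 21. Atp6v0a4 made up 71.2 ± 4.11% of the mRNA of the 4 a subunits on day 0 and 59.5 ± 1.87% on day 21 (SD, n = 3 each). Tcirg1, the a3 isoform, is part of that total and was called higher, and with Tcirg1 left out, a choice made after seeing the data, the share was 73.9 ± 3.83% on day 0 and 67.5 ± 0.985% on day 21 (SD, n = 3 each). Atp6v0a2, the a2 isoform, had a log2 fold change of -0.58 (adjusted p = 0.0016 by edgeR), just under the 1.5-fold limit. Thus a4 was the most abundant a isoform in whole kidney at both times, and B1 the less abundant B isoform. Atp6v0d2 made up 16.8 ± 3.58% of d subunit mRNA on day 0 and 23.5 ± 3.20% on day 21, and Atp6v1g3 13.8 ± 4.98% and 10.1 ± 0.791% of the G subunits (SD, n = 3 each).

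On the same scale, in CPM per kilobase of exon, Atp6v0a4 had the highest level of the 10 genes on day 0 with 79.8 (range 64.9 to 89.1), followed by Rhcg with 54.4 (range 38.1 to 70.0). Slc26a4, Atp6v1b1, Atp6v1g3, Foxi1, Atp6v0d2 and Slc4a1 followed in this order, from 27.5 to 15.0, and no neighbours among these 6 were parted beyond the spread of the mice. Slc4a9 with 8.26 and Hmx2 with 3.13 stood below them. On day 21 the first and second places were unchanged and parted (43.3 ± 2.52 and 33.6 ± 2.26, SD, n = 3 each). Slc26a4 with 8.43 had moved below Foxi1 with 12.5, and Slc4a1 with 1.91 had moved below Slc4a9 with 4.82 and could not be parted from Hmx2 with 1.54.

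The mice of a group also differed in a shared way. On day 0, replicate 3 had the lowest level for 9 of the 10 genes, the exception being Hmx2, and replicate 1 had the highest for 6 of them. On day 21, replicate 2 had the highest level for 8 of the 10 genes. How often each mouse was highest or lowest over all genes tested was not computed, so this order is not shown to be particular to these genes. The coefficient of variation between mice ran from 13.9% (Foxi1) to 38.0% (Atp6v1g3) on day 0 and from 5.19% (Slc26a4) to 29.5% (Hmx2) on day 21. The summed level of the 10 genes was 1095, 1073 and 753 CPM on day 0 and 535, 589 and 526 CPM on day 21, with no overlap.

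Another 20 genes known from intercalated cells were read from the same fit, of which 18 were tested. Of these, 9 were called lower and 1 higher, with a median log2 fold change of -0.65. The median was -0.42 without day-0 replicate 1, -0.37 with no filter and -0.36 over genes with a mean of at least 50 counts. The falls were largest for Rhbg, the ammonia channel of the blood side (-2.50), Insrr, a receptor that senses alkali (-2.00), Aqp6, a water and anion channel of type A cells (-1.61), and Oxgr1, the receptor for alpha-ketoglutarate in type B cells (-1.57). Insrr stood at 20.6, 33.8 and 22.6 CPM on day 0 and at 6.43, 8.17 and 4.66 CPM on day 21. Aqp6 stood at 150, 82.1 and 64.1 CPM on day 0, in the same order of mice as Slc4a1, and at 33.0, 35.4 and 28.7 CPM on day 21. Both genes were parted between the days. Rhbg was scarce, with counts of 18, 18 and 11 on day 0 against 2, 6 and 4 on day 21. Of its exon bases, 61.4% also belong to Gm38392 on the same strand. The other 5 that were called lower are Avpr1a, Slc26a7, Adgrf5, Car12 and Hepacam2, named here after their values were seen, with log2 fold changes from -1.34 to -0.90.

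Kcnn4, a calcium-activated potassium channel that immune cells also carry, was the gene of this list that rose, from 3, 15 and 10 counts to 49, 89 and 60 (log2 fold change 2.24, standard error 0.44, adjusted p = 0.0021 by edgeR). Other genes of this list, picked out after their values were seen, did not pass. Kit, a receptor tyrosine kinase of type A cells, had a log2 fold change of -0.17, the transcription factor Tfcp2l1, needed for the pattern of intercalated and principal cells, of -0.30, and Car2, the cytosolic carbonic anhydrase, of -0.30 (adjusted p = 0.445, 0.057 and 0.058 by edgeR). Kit stood at 29.0, 25.5 and 23.6 CPM on day 0 and at 19.7, 28.9 and 20.8 CPM on day 21. Car15 and Atp12a had too few counts to be tested.

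**Figure D3:**
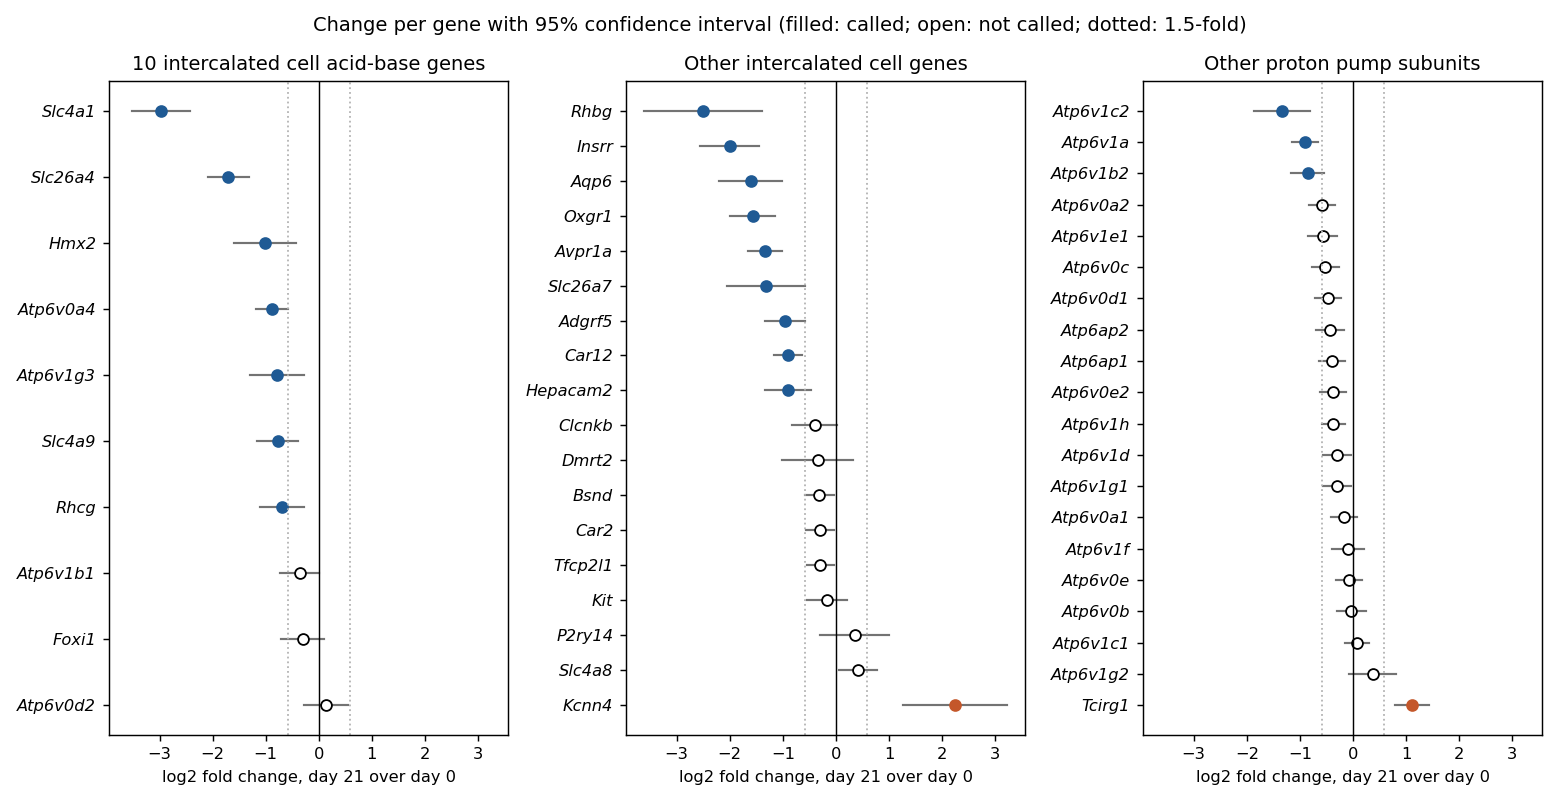
Log2 fold change (day 21 over day 0) of each gene tested, with its 95% confidence interval, for the 10 intercalated cell acid-base genes, 18 other intercalated cell genes and 20 other proton pump subunits. Filled symbols are called (blue lower, orange higher), open symbols are not called, and dotted lines mark 1.5-fold. In the first panel 7 of 10 genes are called lower, in the second 9 of 18, and in the third 3 of 20.

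The rest of the proton pump was read from the same fit. Of 21 other subunits and accessory proteins, 20 were tested, with 3 called lower (15.5% of all genes tested were), 1 called higher and a median log2 fold change of -0.37. Those called lower were Atp6v1c2 (-1.34), the C2 isoform, and Atp6v1a (-0.90) and Atp6v1b2 (-0.85), which form the ATP-splitting head. A further 8 had an adjusted p under 0.05 with lower counts but stayed under 1.5-fold. At that p and any fold, 11 of the 20 were lower and 1 was higher. Among all genes tested, 45.6% reached that p at any fold in either direction. Tcirg1, the a3 subunit known from osteoclasts and lysosomes, was higher, at 18.4, 17.5 and 19.3 CPM on day 0 and 37.7, 46.9 and 34.4 CPM on day 21 (log2 fold change 1.11, standard error 0.14, adjusted p = 1.5e-04 by edgeR). With library size alone the median of these 20 genes was 0.01, against 0.42 for all genes.

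Markers of neighbouring tubule cells were lower in part. Of the 8 principal cell markers, 3 were called lower, the water channels Aqp4 (-2.62), Aqp3 (-1.59) and Aqp2 (-1.17), and none higher. Their median was -0.27, and it was -0.52 without day-0 replicate 1 and -0.12 without day-0 replicate 3. Scnn1b, a subunit of the sodium channel ENaC, was at 0.48 (adjusted p = 0.029 by edgeR, under 1.5-fold). Every day-21 mouse lay above every day-0 mouse for Scnn1b, as for 30.7% of all genes tested. Hsd11b2 (0.31), Scnn1g (0.23), Avpr2 (-0.24) and Fxyd4 (-0.31) were also not called, and their groups overlapped. Of 4 distal convoluted tubule markers 3 were called lower, with a median of -1.08, and of 4 thick ascending limb markers 2 were called lower and 1 higher. All 6 proximal tubule markers were called lower, with a median of -1.90. These lists were not tested against the 10 genes.

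Acid-base handling upstream, in the proximal tubule, was read from 8 genes, of which 7 were called lower, with a median log2 fold change of -1.21. Of these calls, that of Slc38a3 (adjusted p = 0.04995 by edgeR) held under 9 of 17 alternatives and was lost without day-0 replicate 2, day-21 replicate 2 or day-21 replicate 3, and that of Glud1 was lost with upper quartile scaling, with library size alone and with limits of 0.01 for the adjusted p and 2 for the fold. Pck1, which makes glucose from the carbon left by ammonia production, fell by 2.69 on the log2 scale, Car14, a membrane carbonic anhydrase, fell by 2.18, and Car4, another, fell by 1.96. Slc4a4, the sodium-bicarbonate cotransporter of the blood side, fell by 1.34. Car14 has 17.5% of its exon bases inside Aph1a on the other strand.

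The genes nearest in profile over the 6 mice, by Euclidean distance of log2 CPM centred on each gene's mean, were Fads6 (0.195), Pxmp2 (0.248) and Mettl7a2 (0.256) for Slc26a4. For Slc4a1 they were Etnppl (0.383), Spp2 (0.591) and Idi1 (0.628). None of these 6 is in the lists of intercalated cell genes, and with 3 mice a day the distance reflects mainly the change between the days.

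**Figure D4:**
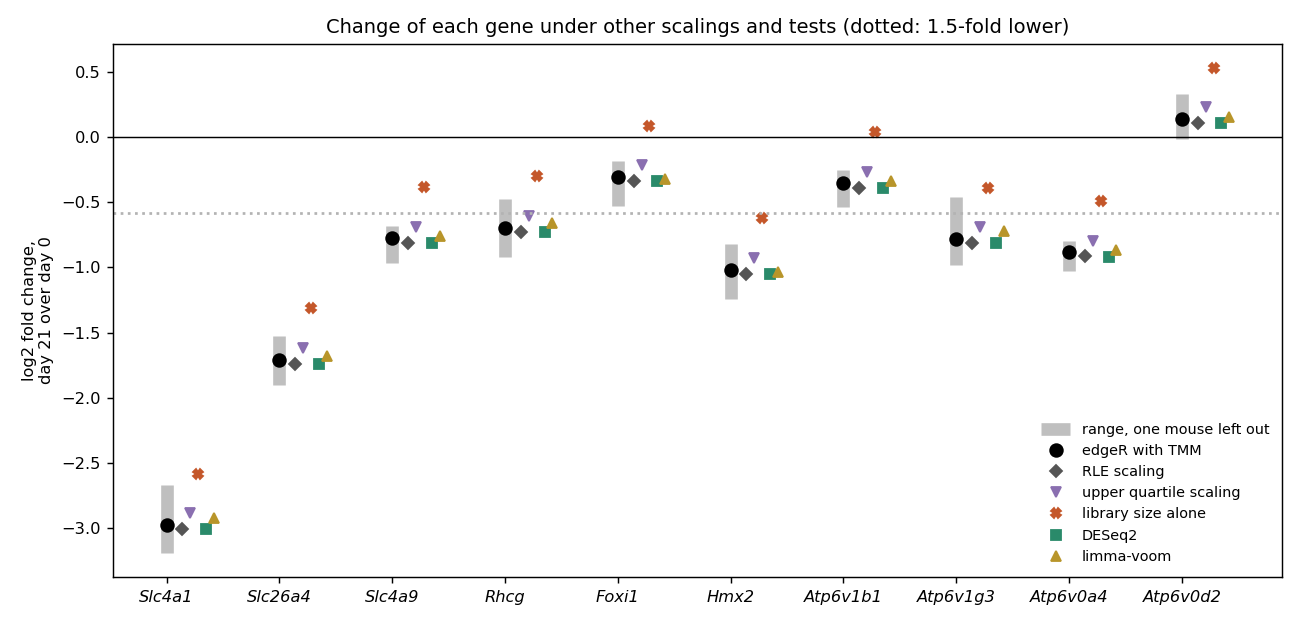
Log2 fold change (day 21 over day 0) of the 10 genes by edgeR with TMM (black), by other scalings and tests (coloured symbols) and as the range when 1 mouse is left out (grey bars). Library size alone lifts every gene by a like amount, so that Slc4a1 and Slc26a4 stay below the dotted 1.5-fold line by a wide margin and Foxi1 and Atp6v1b1 cross 0.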

How the data were processed

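Kidney mRNA of 3 day-0 and 3 day-21 mice was sequenced as paired-end reads. Per the submitters' processing notes, reads were aligned with TopHat to mm10 (GRCm38), and what the authors deposited are raw gene counts, not normalized and not pooled over mice. The counting program and its strand setting are not given in the sources used here, which limits genes that overlap others. Identifiers matched GENCODE mouse release 21, which gave symbols, positions and exons. Groups were taken from the sample titles, and day 0 was equated with control as the design text does.

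The tests were run under R 4.3.3 using edgeR 4.0.16 (filterByExpr with a minimum count of 10 and total of 15, TMM scaling, quasi-likelihood test, Benjamini-Hochberg adjustment over 16592 genes), with DESeq2 1.42.0 and limma 3.58.1 as alternatives. Standard errors were derived from the F statistic. Ratios within a mouse used a prior count of 0.5. Levels per length are CPM per kilobase of annotated exon, merged over all transcripts of a gene. Intervals and floors cover counting error or the spread between these mice only. In simulated counts made from this comparison (15716 genes), edgeR called 176 of 200 genes changed 3-fold and 14 unchanged genes. Only those 200 genes were changed and all by 3-fold. The simulation therefore does not show how smaller changes, or changes in a large share of genes, are called.

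The 10 genes and the 11 other lists were chosen with earlier results of these data known, and 1 listed symbol, Ahsp, was not matched. The genes named are the 10, the widely used pump isoforms, of each other list up to 4 called genes per direction with the largest change, a few defining markers, and the 3 nearest profiles to Slc26a4 and Slc4a1. Others are named where stated as chosen after their values were seen, or where a list is described gene by gene.

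No library repeated another: within a day, the count difference of each pair gave a chi-square of 7.17 to 25.7 for each gene on average. Alternatives were other scalings (RLE, upper quartile, library size alone), no filter or a mean of at least 50 counts, DESeq2, limma-voom, the replicate number as a block, other thresholds, leaving out each mouse, removal of mitochondrially encoded genes and, for ratios, a prior count of 2.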

Additional observations from a re-analysis of the deposited data

How the results depend on the processing

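The calls of single genes among the 10 stayed the same in 158 of 170 combinations of gene and alternative. The other 12 lost a call with the same direction. A change of sign in a gene not called either way was counted as the same call. The number of the 10 genes called lower, 7, went to 2 with library size alone and to 3 with stricter limits (adjusted p 0.01 and 2-fold), and was 6 to 7 with single mice left out. None of the 10 was called higher under any alternative. Values of genes that were not called changed sign for Foxi1 and Atp6v1b1 with library size alone and for Atp6v0d2 without day-0 replicate 3 or without day-21 replicate 2.

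Of the other intercalated cell genes, the 9 called lower were 6 with library size alone and with the stricter limits, 7 with a mean of at least 50 counts, and 9 to 10 with single mice left out. The 1 called higher became 2 with library size alone, with no filter and without day-0 replicate 3, and 0 with a mean of at least 50 counts, which removes Kcnn4 (1 to 2 with single mice left out). Of the other pump subunits, the 3 called lower became 5 with RLE scaling and with DESeq2, 1 with library size alone, 11 with an adjusted p under 0.05 at any fold and 1 with the stricter limits, and 3 to 5 with single mice left out, the 5 being without day-0 replicate 3. The 1 called higher became 2 with library size alone and stayed at 1 with each mouse left out. Apart from what a setting does by its construction, the cause was not tested.

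The log2 shift of ratios within a mouse ranged, with single mice left out, from 0.33 to 0.65 for Atp6v1b1 to Atp6v1b2, from -0.84 to -0.57 for Atp6v0a4 to Atp6v0a1, from 0.48 to 0.82 for Atp6v0d2 to Atp6v0d1, from -0.63 to -0.11 for Atp6v1g3 to Atp6v1g1 (the last without day-0 replicate 1), from 0.99 to 1.46 for Slc26a4 to Slc4a1 and from 2.00 to 2.29 for Slc4a9 to Slc4a1. None reversed. The difference in the Atp6v0a4 share of the a subunits, -11.7 percentage points, was -6.33 without Tcirg1. Replicate numbers do not pair the mice, since the correlations of deviations between same-numbered mice were -0.01, 0.16 and 0.08. With the replicate block 7 of the 10 genes, 9 of the other intercalated cell genes and 3 of the other pump subunits were again called lower, and of the calls examined only Slc38a3, one of the 7 proximal acid-base genes called lower, was lost (log2 fold change -0.57, adjusted p = 0.068 by edgeR). The ratios had the same shifts under the block, with exact sign-flip p of 0.25 or 0.5, where 0.25 is the smallest that 3 pairs allow.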
